A study of Mus musculus with 9 samples.

Results

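CXC chemokine genes and the genes of their receptors were examined in brain macrophages, the microglia, of mice at 3 ages. The set was given as 9 gene symbols, 6 ligands and 3 receptors, and 8 of them had values among the 22036 genes of the per-library table: the ligands Cxcl13, Cxcl16, Cxcl14, Cxcl1, Cxcl2 and Cxcl9 and the receptors Cxcr4 and Cxcr5. Cxcr6, which encodes the receptor for Cxcl16, was not analysed here. The set takes its name from Cxcl13 and Cxcl16, whose change with age in these same libraries was known when it was put together, so both count as chosen by their measured age differences, which are given as a description and without a test. The other 6 genes were tested with all others.

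RNA sequencing was done on flow-sorted brain microglia of female, wild-type mice, strain C57BL/6. Mice were 6 months old in the young group, 15 months in the middle-aged group and 23 months in the old group. There were 3 libraries per age, and each held the pooled RNA of 3 mice, so the spread between libraries is one between pools of animals. The sources used here give neither the sort gate nor read totals, and the depth is unknown.

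The values are on a log2 scale, and the transformation behind them is not stated. It may shrink differences, so a step of 1 need not be a doubling of the transcript, and differences are given on the deposited scale without folds. Levels per kilobase and sums over markers treat the values as plain log2 counts. A gene was tested where at least 3 libraries reached the log2 of 10 normalized counts, and 14955 genes did. All 8 CXC genes were above that floor in all 9 libraries, so none is marked as not expressed. The lowest of them was Cxcl14, with a mean of 6.68 over the 9 libraries, close to the median of 6.66 over all genes of the table. Of the other CXC genes measured, Cxcl3 at a mean of 3.41 lay just inside the floor and Ppbp at 2.19 below it. Old replicate 3 stood apart from the rest, at 29.85 on a first principal component on which the other 8 libraries lay between -14.43 and 5.9. Some of the results that lean on it are therefore also given without it. Microglial markers were high throughout: 8 of the 10 markers listed were measured, the lowest, Sall1, was at 14.07 or more, and Tmem119 lay between 15.20 and 15.52 in all libraries. Most of these markers were lower in old libraries: the median old minus young difference of the 8 was -0.26, against -0.01 for all genes tested, and 2 fell, Siglech (-0.37 ± 0.08) and Fcrls (-0.39 ± 0.09; limma, Benjamini-Hochberg adjusted p = 0.0439 and 0.0494), where 2% of all genes were called. Cx3cr1 had 18.40, 18.44 and 17.66 in old replicates, against 18.62, 18.81 and 18.61 in young ones, and was not called (adjusted p = 0.186). The part of these differences in the values of the CXC genes was not tested.

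CXC chemokines are small secreted proteins named for a pair of cysteines with one residue between them, and they act on receptors that couple to G proteins and steer the movement of leukocytes. Cxcl13 attracts B cells through Cxcr5. Cxcl16 is made as a membrane-bound protein that binds Cxcr6 and, in other macrophages, oxidised lipoprotein, and it is shed by the proteases Adam10 and Adam17. Cxcl1 and Cxcl2 attract neutrophils through Cxcr2, Cxcl9 is induced by interferon-gamma and acts on Cxcr3, and Cxcr4 is the receptor for Cxcl12.

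The genes Cxcl1, Cxcl2, Cxcl9 and Cxcl13 lie on chromosome 5 of the mouse genome (GRCm38, GENCODE M21). Cxcl1 spans 90891241 to 90893115 and Cxcl2 90903871 to 90905938, side by side on the plus strand. Cxcl9 spans 92321347 to 92328079 on the minus strand and Cxcl13 95956951 to 95961068 on the plus strand. The others are dispersed. Cxcl16 lies on chromosome 11 at 70453983 to 70459984, Cxcl14 on chromosome 13 at 56288643 to 56296551, Cxcr4 on chromosome 1 at 128588199 to 128592293 and Cxcr5 on chromosome 9 at 44511787 to 44561877. All of these are annotated as protein-coding genes.

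Promoter windows from RefSeq (build GRCm38.p6), 250 bases before to 50 bases after an annotated start site, were matched by symbol for 7 of the 9 genes, and for Cxcl16 and Cxcr5 none was used. The 3 shown here are those of Cxcl13, the ligand with the widest range, and of the neighbours Cxcl1 and Cxcl2. All are written 5′ to 3′ on the plus strand. Capitals mark matches to the NF-kB consensus in Cxcl1 and Cxcl2, and in Cxcl13 the letters GGGAGATT and the TATA box TATAAA. The letters GGGAGATT were searched because a site that contains them has been described in the Cxcl13 promoter as bound by RelB and p52, the dimer of the non-canonical NF-kB pathway.
Cxcl13, chr5:95956689-95956988: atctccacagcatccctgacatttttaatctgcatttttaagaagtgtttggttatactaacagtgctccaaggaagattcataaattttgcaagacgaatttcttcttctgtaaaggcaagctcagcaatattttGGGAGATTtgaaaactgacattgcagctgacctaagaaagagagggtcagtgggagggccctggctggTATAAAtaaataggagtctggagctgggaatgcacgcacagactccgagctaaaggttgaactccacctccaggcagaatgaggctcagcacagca
Cxcl1, chr5:90890995-90891294: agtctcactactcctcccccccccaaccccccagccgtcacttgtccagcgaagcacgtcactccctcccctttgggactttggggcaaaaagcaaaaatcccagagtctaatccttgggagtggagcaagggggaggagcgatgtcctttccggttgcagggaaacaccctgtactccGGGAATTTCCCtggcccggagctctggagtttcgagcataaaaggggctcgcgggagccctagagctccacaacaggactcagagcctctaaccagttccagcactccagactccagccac
Cxcl2, chr5:90903649-90903948: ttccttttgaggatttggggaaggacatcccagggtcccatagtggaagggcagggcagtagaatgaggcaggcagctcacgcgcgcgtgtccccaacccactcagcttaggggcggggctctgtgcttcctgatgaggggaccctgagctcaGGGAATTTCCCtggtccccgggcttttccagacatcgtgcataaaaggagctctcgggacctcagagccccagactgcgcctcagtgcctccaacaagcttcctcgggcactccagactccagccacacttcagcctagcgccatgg

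Cxcl1 and Cxcl2 hold the same run, GGGAATTTCCC, in which the NF-kB consensus matches on both strands with both matches overlapping. It lies from 71 to 61 bases before the start site in Cxcl1 and from 97 to 87 bases before it in Cxcl2. The consensus was found on either strand in 4.51% of the 32851 promoter windows, and in none of the other CXC windows used. In a global alignment the Cxcl1 and Cxcl2 windows were identical at 54.3% of positions, against 42.7% to 50.9% for the other pairs of CXC windows. In Cxcl13 the letters GGGAGATT lie 114 to 107 bases before the start site, and 0.916% of all windows hold them on either strand. They were taken from a site described in this promoter, so their presence in Cxcl13 is not a finding of the search. TATAAA lies 46 to 41 bases before the start site of Cxcl13, and near that of Cxcr4 it was found on both strands in 2 overlapping matches, 32 to 25 bases before it. Cxcl9 holds TATAAA farther away, 195 to 190 bases before its start site, and 13.6% of all windows hold these letters. The AP-1 motif TGANTCA was found once, 32 to 38 bases into Cxcl9, and in 7.81% of all windows. These are matches of letters, and binding was not measured.

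**Figure D1:**
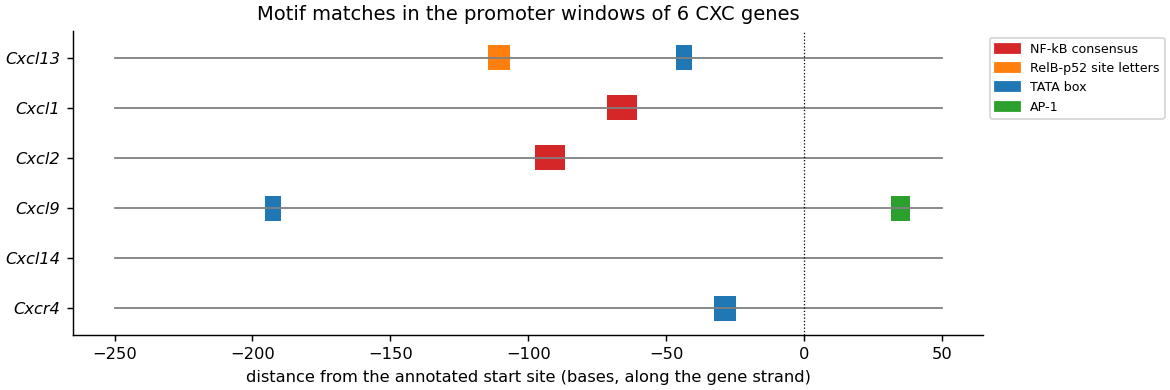
Motif matches in the promoter windows of 6 CXC genes. The x axis is the distance from the annotated start site in bases along each gene's strand, each grey line is one window, and coloured blocks are matches on either strand. Cxcl1 and Cxcl2 carry the NF-kB consensus upstream of the start site, and Cxcl14 has no match to these motifs. Cxcl13 carries a TATA box and the RelB-p52 letters, which were taken from a site described in its own promoter.

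Cxcl13 had the widest range of the 8 genes. Its log2-scale value was 9.10, 8.92 and 9.20 in young replicates 1 to 3, 10.71, 10.73 and 10.39 in middle-aged replicates, and 11.44, 11.44 and 11.82 in old replicates. The 3 ages do not overlap, and the lowest middle-aged library was above the highest young one. The mean was 11.57 ± 0.222 in old and 9.08 ± 0.139 in young libraries (SD, n = 3 each), a log2 difference of 2.49 ± 0.14 (SE of the linear model over all genes). From middle-aged libraries, at 10.61 ± 0.187 (SD, n = 3), old libraries differed by 0.96 ± 0.14, and middle-aged libraries differed from young ones by 1.53 ± 0.14. Without old replicate 3, the highest library, the difference of old from young was 2.37 and that of old from middle-aged 0.83. In bulk RNA, a change in the share of cells with the transcript and a change in transcript per cell cannot be told apart. This holds for all genes here.

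Cxcl16 showed the same order of ages in smaller steps. It had 11.40, 11.48 and 11.36 in young replicates, 11.91, 11.95 and 11.89 in middle-aged ones and 12.46, 12.51 and 12.78 in old ones. The ages again do not overlap, and the middle-aged libraries lay close together. Old libraries, at 12.58 ± 0.175, and young libraries, at 11.41 ± 0.0645 (SD, n = 3 each), differed by 1.17 ± 0.10 on the log2 scale. Old and middle-aged libraries differed by 0.66 ± 0.10, and middle-aged and young ones by 0.51 ± 0.10. Without old replicate 3 the first of these was 1.07 and the second 0.56. Cxcl13 moved more before 15 months than after, while the steps of Cxcl16 were of like size; the difference between the steps was not tested.

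Cxcl14, which encodes a chemokine of epithelia and brain with homeostatic roles, was lower in level and showed its largest values in old libraries. It had 6.47, 6.47 and 6.52 in young replicates, 6.61, 6.56 and 6.62 in middle-aged ones and 6.88, 6.75 and 7.26 in old ones. The 3 ages do not overlap, and old replicate 3 is the highest library. Old libraries, at 6.96 ± 0.265, and young libraries, at 6.49 ± 0.0278 (SD, n = 3 each), differed by 0.48 ± 0.11, which did not pass the threshold over all genes tested (limma moderated test, Benjamini-Hochberg adjusted p = 0.0601). The old and middle-aged libraries differed by 0.37 ± 0.11 and the middle-aged and young ones by 0.11 ± 0.11 (limma, adjusted p = 0.304 and 0.793). Without old replicate 3 the differences of old from young and from middle-aged libraries were 0.33 and 0.22. The authors' deposited table for old against young gives Cxcl14 a log2 fold change of 1.04 ± 0.22 SE and an adjusted p of 1.44e-05. The call on Cxcl14 therefore depends on which table is read.

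**Figure D2:**
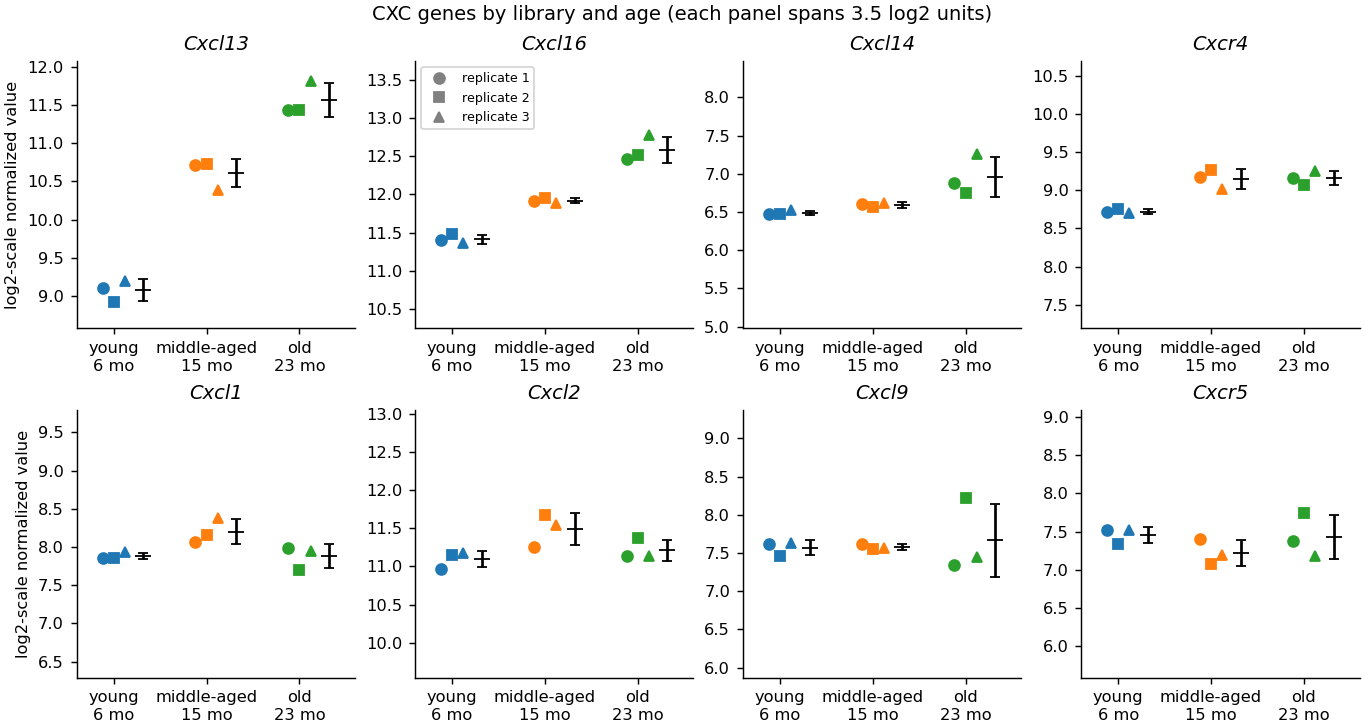
Values of 8 CXC genes in each library. The y axis is the log2-scale normalized value with the same span in each panel, the x axis is age, each symbol is one library of 3 pooled mice, and the bar is the mean with its SD (n = 3). Cxcl13, Cxcl16 and Cxcl14 step up in each age group without overlap, Cxcr4 separates young from both later ages, and old replicate 2 stands highest for Cxcl9 and Cxcr5.

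The receptor gene Cxcr4 separated young libraries from both later ages. Its values were 8.71, 8.76 and 8.70 in young replicates, 9.17, 9.27 and 9.02 in middle-aged ones and 9.16, 9.07 and 9.25 in old ones. All 6 later libraries lay above all 3 young ones, and middle-aged and old libraries overlap. Old libraries, at 9.16 ± 0.0891, and young libraries, at 8.72 ± 0.0313 (SD, n = 3 each), differed by 0.44 ± 0.10 (limma, Benjamini-Hochberg adjusted p = 0.0555), short of the threshold of 0.05. Middle-aged and young libraries differed by 0.43 ± 0.10 (limma, adjusted p = 0.171). The difference of old from middle-aged libraries was 0.01, with a 95% interval of -0.22 to 0.23. In the authors' deposited tables Cxcr4 is called higher in old than in young libraries (0.89 ± 0.18 SE, adjusted p = 8.94e-05) and in middle-aged than in young ones (0.75 ± 0.17 SE, adjusted p = 0.000986). Its ligand gene Cxcl12 lay between 6.58 and 7.04 in the 9 libraries, with an old minus young difference of -0.02 ± 0.12 (95% interval -0.30 to 0.25).

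Cxcr5, the receptor gene for Cxcl13, did not follow its ligand. It had 7.52, 7.34 and 7.52 in young replicates, 7.40, 7.07 and 7.20 in middle-aged ones and 7.38, 7.75 and 7.18 in old ones. The ages overlap in each comparison, and the old libraries hold both the highest value and one of the lowest. The old minus young difference was -0.02 ± 0.14 (95% interval -0.34 to 0.29; limma, Benjamini-Hochberg adjusted p = 0.949), and that of middle-aged and young libraries was -0.24 ± 0.14 (limma, adjusted p = 0.602). Among B-cell markers, Cd79a was also highest in old replicate 2, at 8.66. Over the 8 B-cell markers measured of 9 listed, the summed level on the scale of normalized counts ran from 78791 to 88542 in young, 70441 to 76828 in middle-aged and 73321 to 88291 in old libraries. That sum is mostly Ighm, at 16.00 to 16.35 on the log2 scale. The part of B cells in the values of Cxcr5 was not tested.

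Cxcl1 and Cxcl2, the neutrophil-attracting ligands with adjacent genes, had their highest means in middle-aged libraries. Cxcl1 had 7.86, 7.86 and 7.93 in young replicates, 8.06, 8.16 and 8.38 in middle-aged ones and 7.99, 7.70 and 7.95 in old ones. All middle-aged libraries lay above all others, and old and young libraries overlap. Cxcl2 had 10.97, 11.15 and 11.17 in young replicates, 11.26, 11.67 and 11.54 in middle-aged ones and 11.14, 11.37 and 11.13 in old ones. For Cxcl2 the middle-aged libraries were above all young ones, and old replicate 2 fell within their range. The middle-aged minus young difference was 0.31 ± 0.11 for Cxcl1 and 0.39 ± 0.12 for Cxcl2, and neither passed the threshold (limma, Benjamini-Hochberg adjusted p = 0.312 and 0.265). The old minus middle-aged difference was -0.32 ± 0.11 for Cxcl1 and -0.28 ± 0.12 for Cxcl2 (limma, adjusted p = 0.38 and 0.489). Between old and young libraries the 95% interval was -0.25 to 0.25 for Cxcl1 and -0.16 to 0.39 for Cxcl2. Their receptor gene Cxcr2 was highest in old replicate 2, at 11.16, with 10.87 in middle-aged replicate 2. Its middle-aged minus young difference was 0.15 ± 0.28 (limma, adjusted p = 0.904). The authors' deposited table for middle-aged against young calls Cxcl1 and Cxcl2 higher, with log2 fold changes of 0.58 ± 0.18 SE for Cxcl1 (adjusted p = 0.0342) and 0.47 ± 0.16 SE for Cxcl2 (adjusted p = 0.0462).

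Immediate early genes, which respond within minutes to a stimulus, were also highest in middle-aged libraries. Of 22 immediate early and stress response genes, a list added after the values were seen, 21 were tested, and all 21 had a positive middle-aged minus young difference and a negative old minus middle-aged one. Their median differences were 0.41 and -0.42 on the log2 scale, against 0.00 for all genes tested in both comparisons. None of them was called in middle-aged against young libraries (limma), where 17 of the 21 had an unadjusted p under 0.05, as did 11.4% of all genes. The authors' deposited table for this pair calls Fosb, Fosl2, Jun, Junb, Jund, Ier3, Ier5, Dusp1, Hspa1a and Hspa1b higher, beside 3.26% of its genes with an adjusted p. In old against middle-aged libraries, where 0.174% of all genes were called, 2 fell, Fosb (-1 ± 0.14) and Egr1 (-0.67 ± 0.10), both transcription factor genes (limma, Benjamini-Hochberg adjusted p = 0.0336 and 0.0415). As the mean deviation from the mean of the 9 libraries, the list stood at -0.27, -0.02 and -0.10 in young replicates, 0.15, 0.42 and 0.23 in middle-aged ones and -0.21, -0.21 and 0.01 in old ones. Neutrophil markers, the cells that express Cxcr2, were highest in middle-aged replicate 2, at 1.02 on the same measure, against -0.78 to 0.20 in the other 8 libraries, and all 10 listed were measured. Monocyte markers stood at -0.42, -0.17 and -0.29 in young replicates, 0.06, 0.40 and -0.17 in middle-aged ones and -0.08, 0.49 and 0.18 in old ones. Without middle-aged replicate 2, the middle-aged minus young difference was 0.34 for Cxcl1, 0.30 for Cxcl2 and 0.37 for Cxcr4. The part of these genes and cells in the values of Cxcl1, Cxcl2 and Cxcr4 was not tested.

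**Figure D3:**
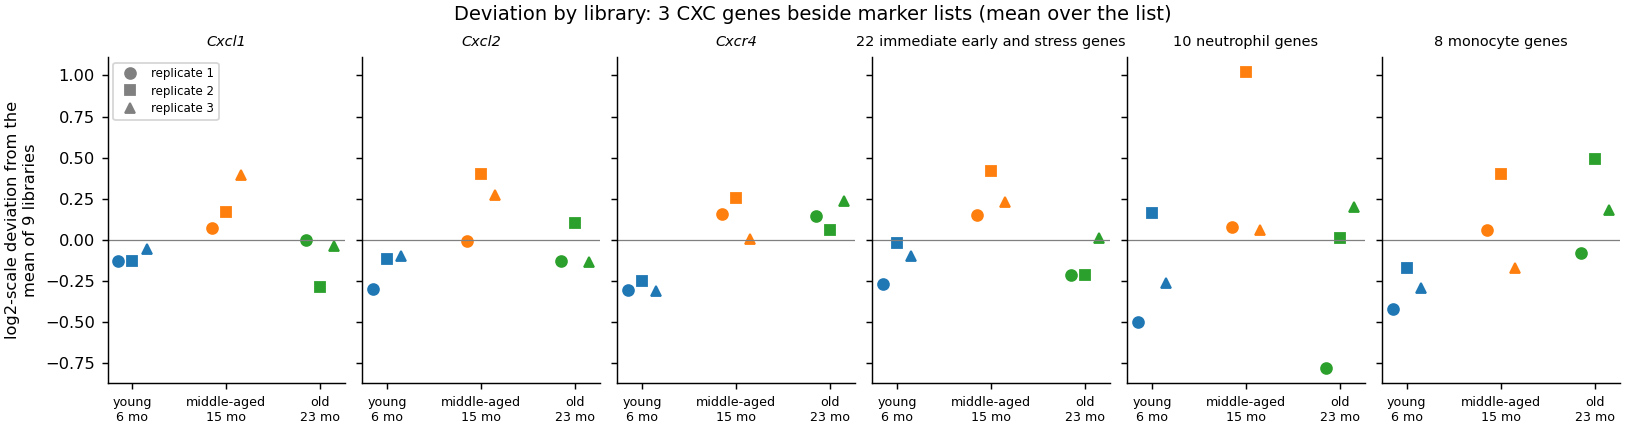
Deviation of 3 CXC genes and 3 marker lists from their mean over the 9 libraries. The y axis is in log2 units, the x axis is age, each symbol is one library, and a list is shown as the mean over its genes. Cxcl1, Cxcl2 and the 22 immediate early and stress genes are highest in middle-aged libraries, Cxcr4 stays high in old ones, and the neutrophil list reaches 1.02 in middle-aged replicate 2.

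Cxcl9 showed no common movement with age. It had 7.62, 7.46 and 7.63 in young replicates, 7.62, 7.55 and 7.56 in middle-aged ones and 7.34, 8.22 and 7.45 in old ones. Old replicate 2 was the highest of the 9 libraries, and the other old replicates were the lowest. The old minus young difference was 0.10 ± 0.19 (95% interval -0.32 to 0.51; limma, Benjamini-Hochberg adjusted p = 0.832), and without old replicate 2 it was -0.18. Cxcl9 and Cxcr5 shared their highest library, with a Pearson r of 0.72 over the 9 libraries. The T, NK and innate lymphoid markers, all 14 measured, summed to 2186, 2476 and 2361 on the scale of normalized counts in young replicates, 2363, 2553 and 2107 in middle-aged ones and 2504, 2789 and 2829 in old ones. The largest of these markers in each library was Nkg7, at 9.38 to 10.24 on the log2 scale. In old against young libraries 12 of the 14 differences were positive, and 2 markers were called higher, where 2% of all genes were called. They were Cd8a (0.25 ± 0.05) and Cd8b1 (0.29 ± 0.06; limma, adjusted p = 0.044 and 0.0434). The authors' deposited table for this pair calls Cd8b1, Cd3g, Trac, Trbc2, Gzma and Gzmb higher, beside 4.72% of its genes with an adjusted p. It does not call Cd8a (0.45 ± 0.18 SE, adjusted p = 0.0538). Cd4 went the other way, with means of 8.86 in young and 8.24 in old libraries, and was not called. Its old replicates had 8.53, 8.54 and 7.66, with old replicate 3 the lowest. The part of these markers in the values of Cxcl9 was not tested. Cxcr3, the receptor gene for Cxcl9, had 9.08, 8.82 and 7.89 in old replicates, against 9.13, 9.07 and 9.29 in young ones, with old replicate 3 far below the rest. Its old minus young difference of -0.57 ± 0.24 was not called (limma, adjusted p = 0.267), and without old replicate 3 it was -0.21.

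Divided by the length of the union of all annotated exons, the order of the ligands changed with age. Per kilobase of exon, young libraries had most of Cxcl2 (10.05 ± 0.106 on the log2 scale), then Cxcl16 (9.82 ± 0.0645) and Cxcl13 (8.87 ± 0.139; SD, n = 3 each). Their ranges do not overlap in young libraries. In middle-aged libraries Cxcl2 (10.44 ± 0.209), Cxcl13 (10.41 ± 0.187) and Cxcl16 (10.32 ± 0.0333) overlap. In old libraries, by these lengths, Cxcl13 (11.37 ± 0.222) lay above Cxcl16 (10.99 ± 0.175) and Cxcl2 (10.16 ± 0.133), with no overlap between these 3 genes. Cxcr4 and Cxcl1 followed at each age, at 8.31 ± 0.0891 and 6.97 ± 0.154 per kilobase in old libraries. Cxcl14, Cxcl9 and Cxcr5 were lowest at each age, at 6.09 ± 0.265, 6.08 ± 0.478 and 5.70 ± 0.292 in old libraries, where their ranges overlap. The lengths are unions of annotated exons, and the transcripts actually used in these cells were not measured. For Cxcl1 and Cxcl2 the unions, 1875 and 2068 bases, cover the whole gene from its first to its last base. Any intron is therefore counted in them, and their levels per kilobase may be too low. The place of Cxcl1 and Cxcl2 in the order, and their lack of overlap with other genes, are therefore uncertain.

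Over all genes tested, 2% passed the threshold in old against young libraries, 0.114% in middle-aged against young and 0.174% in old against middle-aged (limma, Benjamini-Hochberg adjusted p under 0.05, either direction). Of the 6 CXC genes other than Cxcl13 and Cxcl16, 0 passed in each comparison. At an unadjusted p under 0.05 there were 2 in old against young libraries (Cxcl14 and Cxcr4), where 16.8% of all genes met it. There were 3 in middle-aged against young libraries (Cxcl1, Cxcl2 and Cxcr4), where 11.4% did, and 3 in old against middle-aged libraries (Cxcl1, Cxcl2 and Cxcl14), where 10.2% did. Groups that did not overlap, with the later age higher, were found in 2 of the 6 genes in old against young libraries (12.2% of all genes tested), in 4 of 6 in middle-aged against young (11.6%) and in 1 of 6 in old against middle-aged (6.47%). In the last comparison Cxcl1 was lower without overlap, as were 6.41% of all genes. Since the genes were chosen with results of these libraries known, these shares describe them only.

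The authors' deposited table for old against young called 2 of the 6 genes higher, Cxcl14 and Cxcr4, beside 4.72% of the genes with an adjusted p there. In the authors' deposited table for middle-aged against young, 3 of 6 were called higher, Cxcl1, Cxcl2 and Cxcr4, beside 3.26%. In that for old against middle-aged 0 of 6 were called, beside 0.859% called higher among all genes of the authors' deposited table. For Cxcl13 the authors' deposited tables give log2 fold changes of 3.2 ± 0.19 SE for old against young, 1.86 ± 0.17 SE for middle-aged against young and 0.97 ± 0.17 SE for old against middle-aged. For Cxcl16 the authors' deposited tables give 1.48 ± 0.15 SE, 0.67 ± 0.11 SE and 0.77 ± 0.14 SE for these pairs. The fold in the authors' deposited table for old against young was larger than that from the per-library values for Cxcl13, Cxcl16, Cxcl14 and Cxcr4, and for old against middle-aged it was close to it for Cxcl13. What sets these gaps was not tested.

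**Figure D4:**
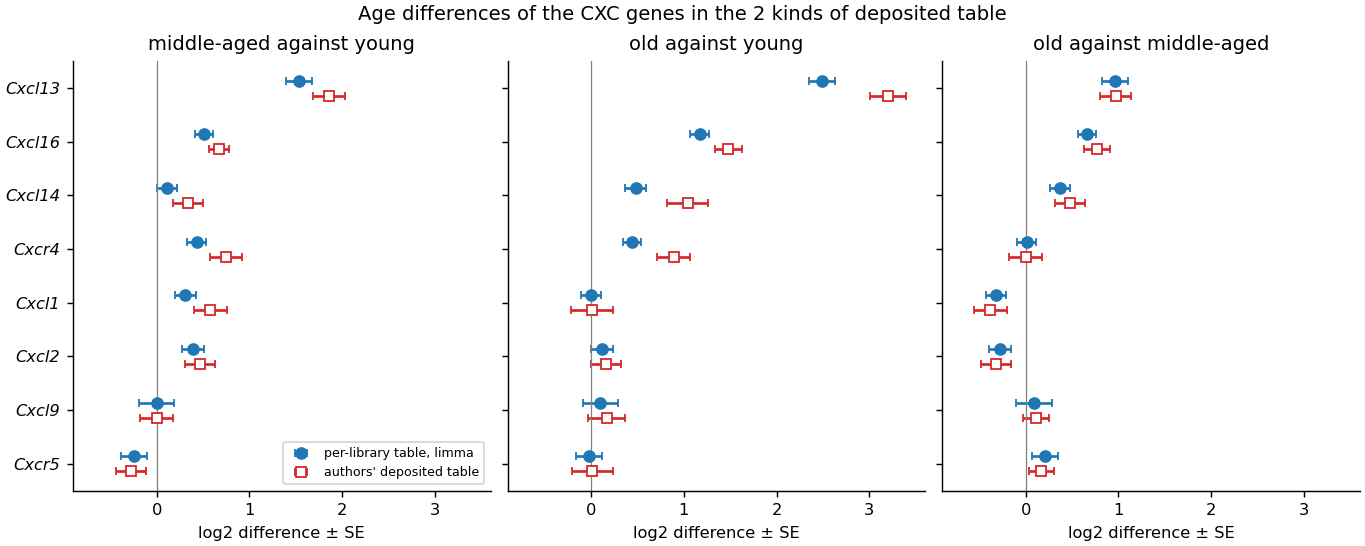
Age differences of 8 CXC genes from the 2 kinds of deposited table. The x axis is the log2 difference with its SE in each panel, filled circles come from the limma fit to the per-library table and open squares from the authors' deposited tables. Both sources put Cxcl13 and Cxcl16 highest in old against young libraries, and the authors' values for Cxcl14 and Cxcr4, 1.04 and 0.89, are the larger of each pair.

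Of 14 further ligand and receptor genes listed, 8 were tested and 0 were called in each comparison (limma), with 3 at an unadjusted p under 0.05 in old against young libraries, Pf4, Cxcr3 and Ackr3, where 16.8% of all genes met it, and 0 in each of the other comparisons. Of these, the difference of Cxcr3 rests on old replicate 3, as given above. The median old minus young difference of the 8 was -0.01, the same as that of all genes tested. Pf4, the platelet chemokine gene that border macrophages also express, had an old minus young difference of -0.51 ± 0.14 (limma, Benjamini-Hochberg adjusted p = 0.0985), and the authors' deposited table calls it lower (-0.58 ± 0.18 SE, adjusted p = 0.0191). Border macrophage markers had a median old minus young difference of -0.39 over 10 genes, against -0.01 for all genes tested. Of the 10, 1 was called lower, Stab1, where 2% of all genes were called in either direction (limma). The part of border macrophages in the values of Pf4 was not tested. Ackr3, a scavenging receptor gene for Cxcl12, had -0.23 ± 0.09 (limma, adjusted p = 0.225).

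The median age difference of the signalling genes below the receptors was near that of all genes, with single genes on either side. Of 32 listed, 29 were tested. The G protein subunit gene Gng5 was the 1 called, in old against young libraries, where 2% of all genes were called. It was higher in old libraries (11.50) than in young ones (10.98), by 0.52 ± 0.12 (limma, Benjamini-Hochberg adjusted p = 0.04995). A pseudogene copy of it, Gng5-ps, is also listed, so reads may be shared between both. The call on Gng5 was lost under 14 of 18 alternatives, and its adjusted p ran from 0.00332 to 0.244 over them. Without old replicate 3 its difference was 0.46 (limma, adjusted p = 0.111). The median old minus young difference over the 29 genes was -0.07, against -0.01 for all genes. In this comparison 8 of the 29 had an unadjusted p under 0.05 (limma), as did 16.8% of all genes. Elmo1, Pik3r5, Pik3cg and Plcb2 were lower in old libraries, and Gng5, Gng12, Gnai3 and Cdc42 higher. Pik3cg had 15.36, 15.44 and 14.80 in old replicates, with old replicate 3 the lowest. The authors' deposited table calls Elmo1 (-0.6 ± 0.16 SE, adjusted p = 0.00362) and Pik3r5 (-0.51 ± 0.16 SE, adjusted p = 0.0273) lower and Gng5 higher (0.67 ± 0.18 SE, adjusted p = 0.00436).

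Of 12 genes for shedding and cutting of chemokines, 11 were tested and 1 rose in each comparison, Mmp12, the macrophage metalloelastase gene. Of all genes, 2% were called in old against young, 0.114% in middle-aged against young and 0.174% in old against middle-aged libraries. Mmp12 had 9.70, 9.97 and 9.64 in young replicates, 11.13, 10.59 and 10.61 in middle-aged ones and 11.75, 11.82 and 11.77 in old ones. The old minus young difference was 2.01 ± 0.15 (limma, Benjamini-Hochberg adjusted p = 8.69e-05). The other comparisons gave 1.01 ± 0.15 for middle-aged against young and 1 ± 0.15 for old against middle-aged libraries (limma, adjusted p = 0.0389 and 0.0414), calls that were lost under 11 and 12 of the 18 alternatives. The Cxcl16 sheddase genes, named here for that role, were not called. Adam10 had an old minus young difference of 0.10 ± 0.08 (95% interval -0.08 to 0.28) and Adam17 one of 0.18 ± 0.09 (95% interval -0.02 to 0.37). Adam17 differed by 0.32 ± 0.09 between old and middle-aged libraries, where limma gave an adjusted p of 0.267 and the authors' deposited table calls it higher (0.38 ± 0.10 SE, adjusted p = 0.0248).

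Of 20 lymphotoxin and non-canonical NF-kB genes, the pathway known to drive Cxcl13 in lymphoid stroma, 17 were tested and 0 were called in each comparison (limma), with 2 at an unadjusted p under 0.05 in old against young (16.8% of all genes), 2 in middle-aged against young (11.4%) and 1 in old against middle-aged libraries (10.2%). Their median old minus young difference was 0.06, against -0.01 for all genes. The ligand genes Lta and Ltb were below the filter, at 2.72 to 2.77 and 2.55 to 2.58. Nfkb2, which encodes the precursor of p52, had 8.08, 8.15 and 8.05 in young replicates, 8.08, 8.06 and 8.03 in middle-aged ones and 8.30, 8.27 and 8.34 in old ones. The old libraries lay above the rest, by 0.25 ± 0.08 over middle-aged and 0.21 ± 0.08 over young ones, without passing the threshold (limma, Benjamini-Hochberg adjusted p = 0.342 and 0.227). Relb had an old minus young difference of -0.09 ± 0.11. Tnfsf13b, which encodes the B-cell survival factor BAFF, had 0.36 ± 0.10 (limma, adjusted p = 0.0914), and the authors' deposited table calls it higher (0.48 ± 0.10 SE, adjusted p = 0.000103). Birc2, which encodes a ubiquitin ligase that restrains this pathway, had an old minus young difference of 0.04 ± 0.09 and a middle-aged minus young one of 0.21 ± 0.09 (limma, adjusted p = 0.395).

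The genes most like Cxcl13 over the 9 libraries, among 11328 compared, were Postn (Pearson r = 0.996), St8sia6 (0.993), Spp1 (0.987), AW112010 (0.986) and Cd52 (0.986). Postn encodes the matrix protein periostin, and its r with Cxcl13 was 0.92 also for the deviations from the age means, while that of Spp1, which encodes osteopontin, was 0.35. For Cxcl16 they were Capg (0.983), Postn (0.982), Fabp5 (0.98), Gas2l3 (0.977) and Itgax (0.973). For the deviations from the age means, Capg, which encodes an actin-capping protein, had an r of 0.71 with Cxcl16 and Itgax, which encodes the integrin CD11c, one of 0.11. Cxcl13 and Cxcl16 had an r of 0.97 with each other, and 0.57 for the deviations. The 9 points share the ages and their libraries, so these values are descriptions.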

How the data were processed

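RNA of microglia sorted from mouse brain was sequenced after a low-input library kit, with 3 mice pooled per library, per the labels' protocols. The submitters' processing notes name CASAVA, cutadapt 1.13, STAR 2.5.3, DESeq2 1.16.1 and mm10, without the role of each or the annotation. Values in the authors' deposited table of libraries are log2 values from -2.14 to 20.05, although its name says normalized counts. No header or label states the transformation, which may shrink differences. Per gene, the authors' deposited comparison tables hold the mean signal, the log2 fold change with its SE, the test's score and its p-value, raw and adjusted, per the file headers.

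The planned log2(value + 1) was replaced by the values as deposited, since they are already on a log2 scale. Genes at 3.32 or more in at least 3 libraries were fitted with limma 3.58.1 in R 4.3.3, with the 3 ages as groups and a variance trend. Its two-sided moderated tests were adjusted by the Benjamini-Hochberg method over 14955 genes at a threshold of 0.05. The fit was tested on simulated data. With 3 libraries on each side, exact permutation gives no p under 0.1.

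The members and gene lists were chosen with earlier results of these data known. Named list genes were those called, up to 6 per list, or otherwise up to 3 with the smallest p, and similar genes were the 5 with the highest r and an age mean of at least 5. Lists are described by counts and medians. The alternatives changed the filter, the scaling, the pseudocount (1), the variance trend, the weighting of libraries, the replicate block or the ages fitted, or left out each library in turn. The immediate early list and the naming of Adam10, Adam17, Cxcl12, Relb and marker genes came after values were seen. Gene positions come from GENCODE M21 on GRCm38, the build of mm10. Figures were drawn with matplotlib 3.10.9.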

Additional observations from a re-analysis of the deposited data

How the results depend on the processing

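Each of the 8 CXC genes was refitted under 18 alternatives. The differences of Cxcl13 and Cxcl16 moved by less than the spread between replicates in all of them, and that of old from young libraries ran from 2.34 to 2.56 for Cxcl13 and from 1.07 to 1.23 for Cxcl16. The count of all genes called in old against young libraries, 299, was 153 with the 2 ages alone, 1609 with library weights, 170 with no filter and 185 with the replicate block, and 84 (without young replicate 3) to 322 (without middle-aged replicate 3) with 1 library left out. The 17 in middle-aged against young libraries were 312 with library weights, 10 with no filter, 11 with the replicate block and 4 (without any one young replicate) to 49 (without old replicate 3) with 1 library left out. The 26 in old against middle-aged libraries were 0 with the 2 ages alone, 62 with library weights, 9 with no filter, 3 with no variance trend, 14 with the replicate block, 43 with the stricter filter and 3 (without any one young replicate) to 23 (without middle-aged replicate 1) with 1 library left out.

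Of the 6 other CXC genes, 0 were called in the main fit. In old against young libraries 2 were called with library weights (Cxcl14 and Cxcr4), 1 with no variance trend (Cxcr4), 1 with the stricter filter (Cxcl14) and 0 to 1 with 1 library left out: Cxcr4 without middle-aged replicate 3 and Cxcl14 without old replicate 2. Over all alternatives the adjusted p of old against young (limma, Benjamini-Hochberg) ran from 0.00535 to 0.212 for Cxcl14 and from 0.0052 to 0.244 for Cxcr4. In middle-aged against young libraries 1 was called with library weights, Cxcr4. The replicate block changed no call on these 6 genes and left 0 called. Mmp12 was called in old against young libraries under all 18, and its call was lost under 11 of 18 in middle-aged against young and 12 of 18 in old against middle-aged.

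Differences that changed sign were not called. For Cxcl1 in old against young libraries this was 0.02 with quantile normalization and library weights, and leaving out 1 library gave -0.06 to 0.09. Cxcl9 had -0.06 with library weights in old against young libraries, -0.04 in old against middle-aged and -0.02 in middle-aged against young, where median centring gave 0.00. Leaving out 1 library gave Cxcl9 -0.18 to 0.26 in old against young, -0.18 to 0.26 in old against middle-aged and -0.05 to 0.03 in middle-aged against young libraries, with -0.18 in both cases where old replicate 2 was left out. Cxcr4 in old against middle-aged libraries had -0.03 with library weights and -0.06 to 0.07 with 1 library left out, and Cxcr5 in old against young had -0.18 to 0.11. Cxcr3 in old against middle-aged libraries had 0.02 with library weights and -0.55 to 0.04 with 1 library left out, the last without old replicate 3. With 1 library left out, Tnfsf13b had -0.07 to 0.06 in old against middle-aged and Birc2 -0.01 to 0.08 in old against young libraries. The cause was not tested.

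The correlation of deviations from the age means between same-numbered libraries ran from -0.24 to 0.23. Between differently numbered libraries it ran from -0.44 to 0.42. With 3 libraries per age, these values cannot decide whether replicate numbers pair the libraries. Depth is unknown.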
